A study of Mus musculus with 6 samples.

Results

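The genes described here encode brakes and receptor-proximal adaptors of NF-κB signalling, and a protease that cleaves some of the brakes. They are A20 (Tnfaip3), its binding partners ABIN-1, ABIN-2 and ABIN-3 (Tnip1, Tnip2 and Tnip3), the adaptors TRAF1 and TRAF2, the ubiquitin ligases cIAP1 and cIAP2 (Birc2 and Birc3), the deubiquitinase CYLD and the paracaspase MALT1. All 10 were taken by symbol from a count table of 41549 genes, and all 10 passed the low-count filter that left 11933 genes for testing. The rule that chose them names symbols and uses no measured value.

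The table holds 6 mRNA libraries of bone marrow-derived macrophages (Mφs), which are grown in culture from marrow precursors with M-CSF. The marrow came from adult wild-type C57Bl/6 N mice, and the cells of every library had received IL-4 and IL-13 to polarize them to the M2 state. In the 3 αGlu libraries the cells had been transfected with an antisense against 5′tRF-Glu(CTC), a fragment that covers the 5′ part of tRNA-Glu. The 3 Ctr libraries came from cells that received a control antisense of the same chemistry, a locked nucleic acid delivered with lipofectamine. The samples are whole cultures, so in each of them fewer cells of a type and less RNA per cell cannot be told apart. The level of the fragment itself is not measured by mRNA libraries.

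The antisense is shown because it is the only thing that was meant to differ between the groups. Written 5′ to 3′, capitals in the fragment mark the bases that pair with the 20 bases of the antisense, which are bases 2 to 21. Only the first 21 bases of the fragment are printed, and the study describes it as longer than that.
antisense: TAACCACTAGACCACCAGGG
fragment: tCCCTGGTGGTCTAGTGGTTA

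Receptors of the TNF family, interleukin-1 and Toll-like receptors activate NF-κB through ubiquitin chains that are built by TRAF and cIAP proteins and read by the TAK1 and IκB kinase complexes. A20, the ABIN proteins and CYLD act on these chains and end the signal. Several of these genes are themselves NF-κB targets, which closes a feedback loop. In macrophages Tnfaip3, Tnip3, Traf1 and Birc3 are known as inducible, whereas Traf2, Birc2 and Cyld are known as steadily expressed.

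Library αGlu 1 stood apart from αGlu 2 and αGlu 3 over the whole table. Its log2 CPM (counts relative to TMM-adjusted library sizes) correlated across genes with Ctr 1 to 3 at r from 0.966 to 0.982, and with αGlu 2 and αGlu 3 at 0.928 and 0.929, whereas αGlu 2 and αGlu 3 correlated with each other at 0.992. Genes are not independent replicates, and these values are a description. Total counts were 22174157 to 25175519 in the Ctr libraries and 17912831, 30386653 and 25501263 in αGlu 1, 2 and 3. All 8 macrophage markers and 6 of 7 M2 markers were above 1 CPM as a mean over the 6 libraries, with summed levels of 11898 to 13491 CPM in Ctr and 12653 to 18662 CPM in αGlu for the macrophage markers, and of 2804 to 4508 CPM and 4011 to 6932 CPM for the M2 markers. Single markers of both lists went in opposite directions, which the sums hide. Of the macrophage markers, Cd68 measured 1809 to 2063 CPM in Ctr and 1990, 1237 and 1144 CPM in αGlu 1 to 3. Itgam measured 425 to 534 CPM in Ctr and 324, 1035 and 1305 CPM in αGlu 1 to 3. Of the M2 markers, Arg1 measured 24.3, 45.2 and 41.5 CPM in Ctr 1 to 3 and 23.5, 1886 and 1792 CPM in αGlu 1 to 3. By contrast Retnla measured 540, 245 and 289 CPM in Ctr and 101, 0.0315 and 0.0367 CPM in αGlu, and Mgl2 measured 87.9, 66.3 and 83.9 CPM in Ctr and 10.6, 0.504 and 2.35 CPM in αGlu. The 10 neutrophil markers summed to 128 to 209 CPM in Ctr and 240.0 to 636 CPM in αGlu. Of these, 4 had a mean above 1 CPM and Csf3r held most of the sum, while Ly6g and Retnlg were at 0 in all 6 libraries. Dendritic cell, lymphocyte, mast cell and fibroblast markers summed to at most 30.9 CPM in any library. The part of these shifts in the results below was not tested. The edgeR tests are given with and without αGlu 1, since it stood apart. It was singled out from these same data as the αGlu library nearest to Ctr. Leaving it out therefore widens the group differences, and the p-values without it are a description and no support for a difference.

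With all 6 libraries, none of the 10 genes was called as changed, and 9 of the 10 had a higher mean in αGlu. Called means a log2 fold change beyond 1 in either direction with an adjusted p under 0.1, in the quasi-likelihood test of edgeR with Benjamini-Hochberg adjustment over all genes tested. The same test called 0% of the 11933 genes, with no adjusted p below 0.149. Before adjustment, p was under 0.05 for 5 of the 10 genes, Tnfaip3, Traf1, Traf2, Birc2 and Birc3, all with the higher mean in αGlu. Over all genes this held for 24.7%, 12.7% with the higher and 11.9% with the lower mean in αGlu. Limma-voom also called none of the 10 and 0% of all genes, with 26% of all genes at an unadjusted p under 0.05. DESeq2 called 3 of the 10 as higher, namely Tnfaip3, Traf1 and Birc3, against 8.13% of the genes it tested, of which 4.21% were higher and 3.92% lower.

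Without αGlu 1, which leaves 2 αGlu libraries against 3, the edgeR test called the same 3 genes as higher. In that comparison 18.6% of 12340 genes were called, 8.05% as higher and 10.5% as lower. At an adjusted p under 0.1 and any fold change stood 7 of the 10 genes, against 49.1% of all genes. The median log2 fold change of the 10 genes was 0.43 with all libraries and 0.60 without αGlu 1, where the medians over all genes tested were 0.02 and 0.01. All values of the 3 αGlu libraries lay on one side of all Ctr values for 2 of the 10 genes, Traf2 and Birc2, both higher. Such a separation was seen for 30.2% of all genes, 14.2% higher and 15.9% lower in αGlu. Without αGlu 1 it was seen for 8 of the 10, all higher, against 65.8% of all genes in either direction and 33.6% higher. The 2 exceptions there were Cyld and Malt1. Leaving out Ctr 2 instead gave 5 of the 10, all higher, where 37.7% of all genes were separated and 18% were higher.

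**Figure D1:**
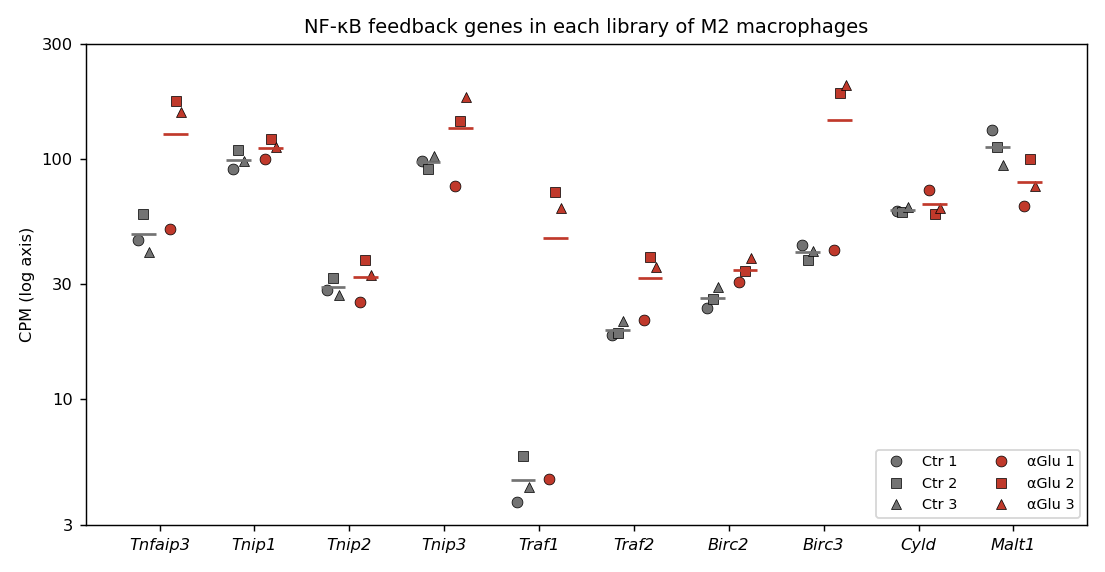
Level of each of the 10 genes in the 6 libraries (genes along the x axis, CPM on a log y axis, 1 point per library, lines for the group means). For Tnfaip3, Traf1 and Birc3 the point of αGlu 1 lies within the Ctr points and the points of αGlu 2 and 3 lie far above them, whereas Cyld stays between 59.1 and 73.8 CPM in all libraries.

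Levels were first compared between the genes within a group, on the deposited TPM scale, which accounts for gene length. In Ctr Mφs Tnip1 was the most abundant at 84.3 ± 6.58 TPM (SD, n = 3) and Traf1 the least at 1.58 ± 0.345 TPM. The TPM ranges of Tnip3, Birc3, Tnfaip3, Malt1 and Birc2, which follow each other from 26.7 down to 17.4 TPM, overlapped from neighbour to neighbour. Tnip2 lay above them at 32.7 ± 2.53 TPM, and Cyld and Traf2 lay below them at 14.7 ± 0.443 and 11.5 ± 0.725 TPM, each apart from its neighbours. In αGlu the order was Tnip1 (100.4 TPM), Birc3 (93.1), Tnfaip3 (56.7), Tnip3 (39.5), Tnip2 (38.3), Birc2 (24.1), Traf2 (20.04), Traf1 (17.1), Cyld (16.5) and Malt1 (14.3). Only Tnip2 and Birc2 were neighbours without overlap in this group, in which the SD of Birc3 was 58.5 TPM and that of Tnfaip3 30.3 TPM.

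The summed TPM of the 10 genes was 250.7, 260.9 and 246.4 in Ctr 1 to 3, 250.7 in αGlu 1, and 501.9 and 507.1 in αGlu 2 and 3. The sum of αGlu 1 thus fell inside the Ctr range and the other two lay well outside it. Birc3 made up 8.63% to 10.7% of the sum in Ctr, 10.3% in αGlu 1, and 24% and 26.2% in αGlu 2 and 3. The share of Tnip1 was 31.3% to 35.0% in Ctr, 34.8% in αGlu 1, and 21.8% and 20.5% in αGlu 2 and 3.

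Tnfaip3 encodes A20, a ubiquitin-editing enzyme that restrains NF-κB, and lies on chromosome 10 at 19000910 to 19015657 on the minus strand (GRCm38). Its level was 45.9, 59.1 and 40.9 CPM in Ctr 1 to 3 and 50.9, 174 and 156 CPM in αGlu 1 to 3. The library αGlu 1 lay within the Ctr range, and the other 2 αGlu libraries were 3.58- and 3.22-fold above the Ctr mean. The log2 fold change of αGlu over Ctr was 1.39 ± 0.46 (SE) with an adjusted p of 0.167 in edgeR, and 1.38 with an adjusted p of 0.0321 in DESeq2. Without αGlu 1 it was 1.76 ± 0.16 with an adjusted p of 0.000433 in edgeR. The mean and SD of the αGlu group, 127 ± 66.5 CPM (n = 3), describe neither kind of library in it.

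The A20-binding proteins gave smaller differences than A20. Tnip1 encodes ABIN-1, which links A20 to linear ubiquitin chains, with a level of 90.2, 109 and 98.2 CPM in Ctr and of 99.6, 121 and 112 CPM in αGlu. These ranges overlapped, at a log2 fold change of 0.16 ± 0.11, with a 95% interval from -0.11 to 0.44. Tnip2 encodes ABIN-2, the partner of the kinase TPL2, and measured 28.5, 31.8 and 27.1 CPM in Ctr against 25.3, 38.1 and 32.9 CPM in αGlu. Here αGlu 1 was the lowest of all 6 libraries and αGlu 2 the highest, and the interval of the log2 fold change ran from -0.25 to 0.53.

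Tnip3 encodes ABIN-3, known as an inducible member of this family. It measured 97.7, 90.3 and 102 CPM in Ctr 1 to 3 and 76.9, 144 and 181 CPM in αGlu 1 to 3. Again αGlu 1 was the lowest of the 6 libraries, and αGlu 2 and 3 were the highest, at 1.48 and 1.87 times the Ctr mean. With all libraries the log2 fold change was 0.47 ± 0.30 (adjusted p = 0.346 in edgeR). Without αGlu 1 it was 0.74 ± 0.12 for Tnip3 (adjusted p = 0.00418), 0.28 ± 0.10 for Tnip2 (adjusted p = 0.0748) and 0.23 ± 0.10 for Tnip1 (adjusted p = 0.117) in edgeR, all under the fold change of a call.

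Traf1 had the largest log2 fold change of the 10 genes. It encodes a TRAF without the RING domain of its relatives, known as an NF-κB target that binds TRAF2 and the cIAPs, and lies on chromosome 2 at 34941750 to 34961772 on the minus strand. Traf1 measured 3.73, 5.81 and 4.32 CPM in Ctr and 4.65, 72.8 and 62.5 CPM in αGlu. These are 82, 139 and 93 reads in Ctr 1 to 3, 81 reads in αGlu 1, and 2312 and 1704 reads in αGlu 2 and 3. So a gene at percentile 12.2 of the tested genes in Ctr (TPM) was 15.8 and 13.5 times its Ctr mean in αGlu 2 and 3. The log2 fold change was 3.34 ± 0.95 (adjusted p = 0.159 in edgeR), 3.33 in DESeq2 (adjusted p = 0.00153), and 3.86 ± 0.17 in edgeR without αGlu 1 (adjusted p = 3.76e-05).

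Traf2 encodes the adaptor that brings the cIAPs to TNF receptors. It measured 18.4, 18.9 and 21.1 CPM in Ctr and 21.3, 38.9 and 35.3 CPM in αGlu. All αGlu libraries lay above all Ctr libraries, but αGlu 1 exceeded Ctr 3 by little, while αGlu 2 and 3 were 1.996 and 1.81 times the Ctr mean. Its log2 fold change was 0.71 ± 0.23 (adjusted p = 0.163 in edgeR), and 0.93 ± 0.09 without αGlu 1 (adjusted p = 0.000612), which stays under the fold change of a call.

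The cIAP genes are neighbours on the minus strand of chromosome 9, with Birc2 at 7818227 to 7837064 and Birc3 at 7848699 to 7873186. Birc3 encodes cIAP2, a ubiquitin ligase known as inducible by NF-κB. Its level was 43.6, 37.9 and 41.5 CPM in Ctr 1 to 3 and 41.8, 188 and 203 CPM in αGlu 1 to 3. The 3 Ctr libraries and αGlu 1 fell within 37.9 to 43.6 CPM, and αGlu 2 and 3 were 4.59- and 4.95-fold above the Ctr mean. The log2 fold change of Birc3 was 1.82 ± 0.56 (adjusted p = 0.161 in edgeR), 1.81 in DESeq2 (adjusted p = 0.0140), and 2.25 ± 0.09 in edgeR without αGlu 1 (adjusted p = 2.8e-05).

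Birc2 encodes cIAP1, the related ligase that keeps the kinase NIK low in resting cells. It measured 23.9, 26 and 29.3 CPM in Ctr and 30.7, 34.0 and 38.5 CPM in αGlu. The groups did not overlap, and αGlu 1 lay above the Ctr range, whereas for Birc3 it lay within it. Its log2 fold change of 0.38 ± 0.12 had an adjusted p of 0.162 in edgeR, and 0.45 ± 0.11 with an adjusted p of 0.0195 without αGlu 1, far below the fold change of a call. The exons of none of the 10 genes overlap those of another annotated gene in GENCODE M21. How the deposited counting treated reads that fit both of a pair of related genes is not given in the sources used here.

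Cyld and Malt1 were the 2 genes that did not share the higher level of αGlu 2 and 3. Cyld encodes a deubiquitinase that removes chains from TRAF2 and NEMO, and it measured 60.4, 59.8 and 63.1 CPM in Ctr and 73.8, 59.1 and 62.2 CPM in αGlu. Only αGlu 1 lay above the Ctr range. The log2 fold change was 0.09 ± 0.10, with a 95% interval from -0.16 to 0.34, and without αGlu 1 it was -0.02 with an interval from -0.19 to 0.16.

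Malt1 encodes a protease that cleaves A20 and CYLD downstream of CARD proteins. Its level was 131, 112 and 93.9 CPM in Ctr and 63.8, 99.98 and 77.1 CPM in αGlu. The lowest value was that of αGlu 1, and the groups overlapped through Ctr 3 and αGlu 2. Malt1 was the single gene of the 10 with a lower mean in αGlu, with a log2 fold change of -0.48 ± 0.20 (adjusted p = 0.206 in edgeR), and of -0.35 without αGlu 1 (adjusted p = 0.156).

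**Figure D2:**
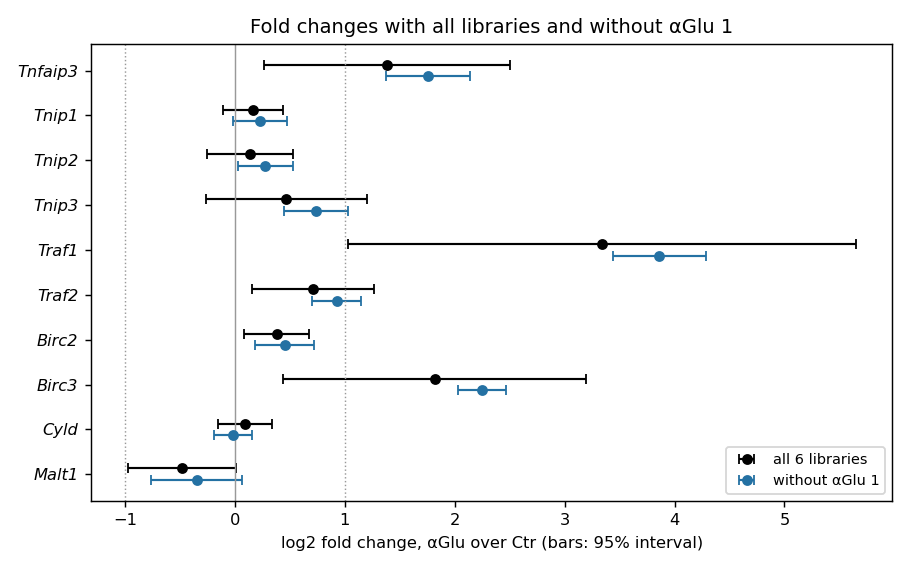
Log2 fold change of αGlu over Ctr for the 10 genes, with 95% intervals, from all 6 libraries and without αGlu 1 (edgeR, with dotted lines at -1 and 1). The interval of Traf1 runs from 1.03 to 5.65 with all libraries and from 3.44 to 4.29 without αGlu 1, and the point of Cyld lies near 0 in both.

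Where αGlu 1 lay among the Ctr libraries was counted gene by gene. It was within the Ctr range for Tnfaip3, Tnip1, Traf1 and Birc3, above it for Traf2, Birc2 and Cyld, and below it for Tnip2, Tnip3 and Malt1. Over all genes tested, αGlu 1 was within the Ctr range for 42.6%. The 4 of the 10 genes within it are near that share. Tnfaip3, Traf1 and Birc3, with the largest fold changes in αGlu 2 and 3, were among these 4. Genes of the wider pathway with large fold changes, described below, were mixed in this respect. There αGlu 1 lay above the Ctr range for Fas and Bcl3, below it for Il1r1 and Nfkbie, and within it for Nfkbia.

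Birc3, Traf1 and Tnfaip3 were then set against a relative or partner in the same library, which removes library scaling. The denominators were not constant, since Traf2 was itself higher in αGlu 2 and 3. The 3 ratios were chosen after the values had been seen and are taken on the TPM scale. Birc3 over Birc2 was 1.67, 1.33 and 1.29 in Ctr 1 to 3 and 1.25, 5.06 and 4.82 in αGlu 1 to 3. Traf1 over Traf2 was 0.117, 0.177 and 0.118 in Ctr and 0.126, 1.08 and 1.02 in αGlu. In αGlu 2 and 3 Traf1 therefore reached the level of Traf2, whereas in the other 4 libraries it was at most 0.177 of it. Tnfaip3 over Tnip1 was 0.249, 0.266 and 0.204 in Ctr and 0.251, 0.703 and 0.683 in αGlu. Exact two-sided permutation tests of the log2 ratios gave p = 0.4, p = 0.2 and p = 0.2 (adjusted over the 3 ratios, 0.4, 0.3 and 0.3), where 3 libraries against 3 cannot give less than 0.1.

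**Figure D3:**
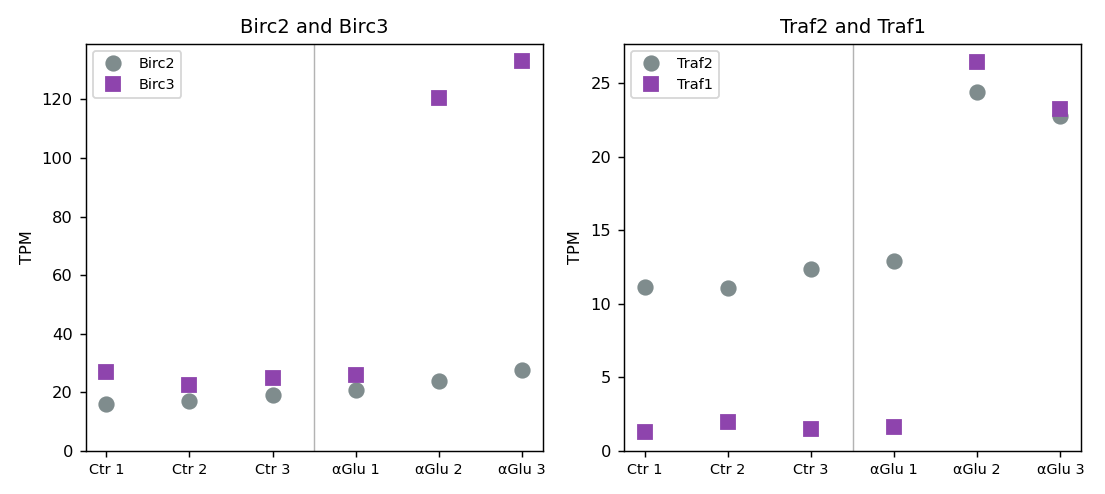
TPM of Birc2 and Birc3, and of Traf2 and Traf1, in each of the 6 libraries (1 panel per pair, linear axis from 0, 1 point per library). Traf1 lies far below Traf2 in Ctr 1 to 3 and αGlu 1, and in αGlu 2 and 3 Traf1 meets Traf2 and the distance between Birc3 and Birc2 widens.

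The rest of the pathway was read from a list of 70 genes in 9 groups by role, of which 66 passed the filter. None of the 66 was called with all 6 libraries in edgeR or limma-voom. At an unadjusted p under 0.05 in edgeR stood 23 with a higher and 5 with a lower mean in αGlu, where 12.7% and 11.9% of all genes stood. DESeq2 called 14 of the list as higher and none as lower, against 4.21% and 3.92% of all genes. Without αGlu 1, 16 were called higher and 4 lower of 67 tested, against 8.05% and 10.5%. The counts of the small groups by role below are to be read against the same shares, and a group of 10 genes with 3, of 7 with 1 or of 5 with 1 at an unadjusted p under 0.05 lies near or below the 24.7% of all genes. The median log2 fold change over the list was 0.16. Removed by the filter were Tnfrsf9, Traf4, Card10 and Otud7a, of which Tnfrsf9 had 0, 0 and 1 reads in Ctr 1 to 3 and 2, 22 and 13 reads in αGlu 1 to 3, and Otud7a had none. Tnfrsf9 is nevertheless counted in the 14 of DESeq2, which was run without this filter, and in the 16 without αGlu 1. It passed the filter there only through αGlu 2 and 3, where it was high, so its call is no support for a difference.

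The group that stood highest held the IκB proteins, both classical inhibitors of NF-κB and atypical members. Its median log2 fold change was 2.17, and all 6 members had an unadjusted p under 0.05, 5 with the higher and 1 with the lower mean in αGlu. DESeq2 called 4 of them as higher, and so did edgeR without αGlu 1. Bcl3, an atypical member that works in the nucleus, measured 8.13, 8.28 and 8.63 CPM in Ctr and 11, 59.8 and 55.9 CPM in αGlu. Nfkbid, another atypical member, went the other way, with 22.1, 21.6 and 19.7 CPM in Ctr and 14.7, 13 and 12.8 CPM in αGlu. Its log2 fold change of -0.65 ± 0.10 had an adjusted p of 0.149 in edgeR, and αGlu 1 lay near αGlu 2 and 3 for this gene. Nfkbia and Nfkbie, picked after their values had been seen because they are the classical feedback inhibitors IκBα and IκBε, measured 27.2 to 37.1 and 4.51 to 6.95 CPM in Ctr, 31.9 and 4.30 CPM in αGlu 1, and 174 and 176 CPM and 72.4 and 74.4 CPM in αGlu 2 and 3.

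Among the NF-κB subunits, 3 of 5 had an unadjusted p under 0.05, all with the higher mean in αGlu, and 2 were called by DESeq2 and without αGlu 1. These were Relb and Nfkb2, the subunits of the non-canonical pathway that TRAF2 and the cIAPs hold down. Relb measured 15.5, 13.3 and 15.2 CPM in Ctr and 17, 65.5 and 61.1 CPM in αGlu. Nfkb2 measured 39.1, 29.97 and 28.3 CPM in Ctr and 32.3, 121 and 121 CPM in αGlu. For both, αGlu 1 lay close to the Ctr libraries, as for Traf1 and Birc3.

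Of the 10 genes of the TAK1 and IκB kinase complexes, 3 had an unadjusted p under 0.05 with the higher mean in αGlu, and none was called in DESeq2 or without αGlu 1. Map3k14, which encodes the kinase NIK that cIAPs degrade, measured 17.2, 19.5 and 18.2 CPM in Ctr and 24.3, 23.6 and 27.6 CPM in αGlu. Ikbke, an IκB kinase relative, measured 134, 144 and 141 CPM in Ctr and 169, 182 and 209 CPM in αGlu. In these 2 genes all αGlu libraries, αGlu 1 included, lay above all Ctr libraries, at log2 fold changes of 0.46 ± 0.10 and 0.42 ± 0.11. They were named for the smallest p of their group. Such a separation was seen for 5 of the 10 genes of the group, against 14.2% of all genes.

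Receptors that recruit TRAFs or IAPs gave 5 of 11 genes with the higher and 1 with the lower mean at an unadjusted p under 0.05. DESeq2 called 6 of all 12 genes of this group as higher. Without αGlu 1, edgeR called 6 of the 12 higher and 1 lower. In both cases 1 of the 6 was Tnfrsf9, which is not among the 11 and had 0, 0 and 1 reads in Ctr. Fas, a death receptor, measured 4.09, 3.05 and 3.39 CPM in Ctr and 4.76, 32.0 and 35.2 CPM in αGlu. Nod2, a sensor of bacterial muropeptides that signals through cIAPs, measured 2.82, 2.93 and 4.41 CPM in Ctr and 4.70, 9.32 and 8.69 CPM in αGlu. Both were called by DESeq2, with log2 fold changes of 2.77 and 1.16.

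The other TRAFs and adaptors held 4 of 10 genes with the higher and 1 with the lower mean at that level, and none was called by DESeq2. Tank, a TRAF-binding regulator, measured 57.5, 67.4 and 77.4 CPM in Ctr and 80.2, 136 and 135 CPM in αGlu. Myd88, the adaptor of Toll-like and interleukin-1 receptors, measured 58.3, 70.3 and 77.4 CPM in Ctr and 74.3, 109.99 and 118 CPM in αGlu. Without αGlu 1, Tank was called higher at a log2 fold change of 1.003 ± 0.13. The 1 gene of the group called lower was Traf5, an adaptor of TNF family receptors picked after its values had been seen, at 42.4, 45.6 and 42.7 CPM in Ctr and 36.9, 19.8 and 14.4 CPM in αGlu.

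A20 partners and related deubiquitinases gave 2 of 8 genes with the higher and 1 with the lower mean at an unadjusted p under 0.05. N4bp1, an inhibitor of NF-κB in myeloid cells, measured 87.6, 103 and 98.5 CPM in Ctr and 112, 354 and 363 CPM in αGlu. Zc3h12a, which encodes the RNase Regnase-1 that MALT1 cleaves, measured 40.2, 42.7 and 46.6 CPM in Ctr and 50.5, 134 and 129 CPM in αGlu. Both were called by DESeq2, and without αGlu 1 at log2 fold changes of 1.89 ± 0.10 and 1.60 ± 0.09 in edgeR. Among the linear ubiquitin genes, 1 of 5 had an unadjusted p under 0.05. It was Otulin, the linear-chain deubiquitinase, at 56.7, 58.1 and 62.7 CPM in Ctr and 54.7, 36.9 and 42.9 CPM in αGlu, and Spata2, which tethers CYLD to this complex, had a log2 fold change of -0.16 ± 0.09.

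Of the 4 partners of MALT1 tested, none had an unadjusted p under 0.05 with all libraries. Card14, which edgeR called lower without αGlu 1, is a scaffold known from keratinocytes and had 54, 100 and 65 reads in Ctr, 52 in αGlu 1, and 4 each in αGlu 2 and 3. Card9, the scaffold of C-type lectin receptors in myeloid cells, stayed at 38.0 to 42.0 CPM in Ctr and 41.4 to 43.7 CPM in αGlu.

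In the last group, other IAPs and the death complex, 1 of 7 genes had an unadjusted p under 0.05. It was Cflar, the caspase-8 inhibitor c-FLIP and a known NF-κB target, at 109.8, 159 and 145 CPM in Ctr and 179, 307 and 296 CPM in αGlu. Xiap, the related inhibitor of caspases, measured 96.0 to 103 CPM in Ctr and 96.2, 84.6 and 85.6 CPM in αGlu 1 to 3, and the groups overlapped.

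**Figure D4:**
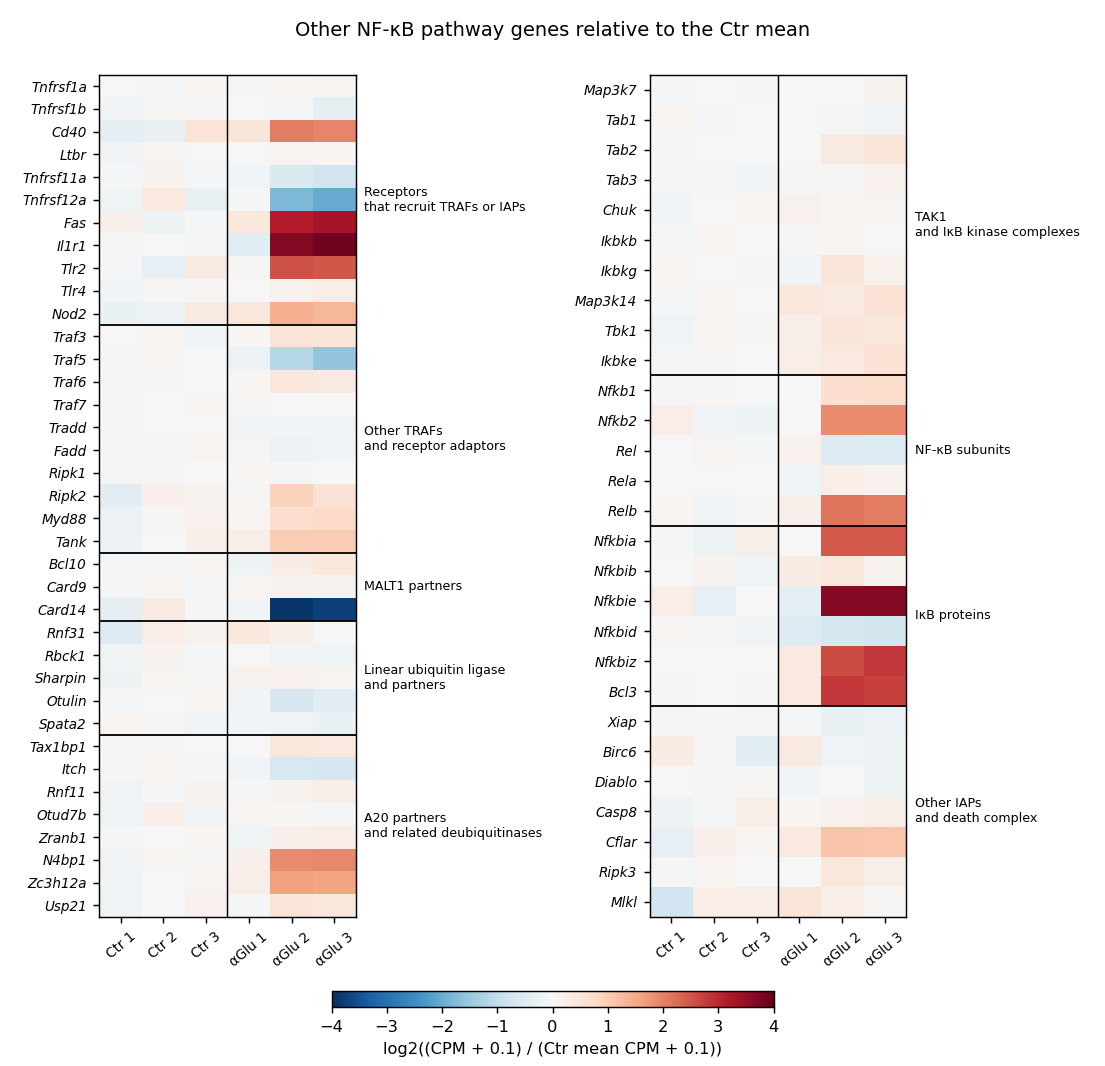
Log2 level of genes of the pathway list relative to their Ctr mean, in each of the 6 libraries (colour, with a pseudocount of 0.1 CPM and the scale ending at 4 in either direction), arranged by role. In αGlu 1 the level lies within the Ctr range for 31 of the 66 list genes, and the strongest colours of αGlu 2 and 3 lie with Il1r1 (an interleukin-1 receptor, picked after its values had been seen), Nfkbie and Fas and, in the opposite direction, Card14.

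Sequence upstream of the start sites was read for the κB consensus, the 10-base motif that NF-κB dimers bind, on both strands of the 250 bases before each RefSeq start (GRCm38.p6). RefSeq promoters were matched for 9 of the 10 genes, all except Malt1. The consensus was matched in 4 of the 9, Tnfaip3, Tnip1, Tnip3 and Cyld, where 8.23% of all 27025 genes held it in at least 1 of their promoters of the same length, and 7.25% of all 32851 promoters did. The stretches of 30 bases that hold these matches are printed because they set the sequence beside the levels above. They run 5′ to 3′ on the strand of the gene, with the match in capitals.
Tnfaip3, chr10:19015516-19015545, minus strand: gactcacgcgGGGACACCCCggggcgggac
Tnfaip3, chr10:19015411-19015440, minus strand: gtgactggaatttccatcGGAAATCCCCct
Tnip1, chr11:54962978-54963007, minus strand: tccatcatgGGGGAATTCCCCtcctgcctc
Tnip3, chr6:65590334-65590363, plus strand: gagacatcctGGGAAATCCCagttacatgg
Cyld, chr8:88696863-88696892, plus strand: ttgaccgagcGGAAAGTCCCttcagccagc

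The matches begin 125 and 12 bases before the RefSeq start of Tnfaip3, 58 before that of Tnip1, 54 before that of Tnip3 and 155 before that of Cyld. These RefSeq starts need not be the outer ends of the genes. The window of Tnip3 lies inside the GENCODE span of that gene, 65525313 to 65634040. Both Tnfaip3 matches also lie inside the span of their gene, in a window with 110 annotated exonic bases. The other RefSeq window of Tnfaip3 held no match. The capitals of Tnip1 hold 3 overlapping matches over 12 bases. The genes with a match thus include Tnfaip3, which DESeq2 called, as well as Cyld, whose interval lay around 0. The windows of Traf1, Traf2, Birc2, Birc3 and Tnip2 hold no match to these letters, which says nothing of sites elsewhere. For Traf1, the gene with the largest fold change, the window is chr2:34961773-34962022 on the minus strand.
Traf1: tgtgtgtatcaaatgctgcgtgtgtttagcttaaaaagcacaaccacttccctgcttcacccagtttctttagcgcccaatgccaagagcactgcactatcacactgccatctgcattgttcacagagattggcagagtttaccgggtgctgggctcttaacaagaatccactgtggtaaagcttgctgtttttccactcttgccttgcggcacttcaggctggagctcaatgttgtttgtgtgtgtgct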

How the data were processed

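The authors sequenced stranded mRNA libraries and ran the QIAGEN RNA-seq Analysis Portal on the reads. GRCm38 stands in the submitters' processing notes, and the aligner and annotation are not given in the sources used here. The deposited counts are raw numbers of exonic reads per gene. Both the deposited RPKM and the deposited TPM values are these reads scaled for length and depth by the authors. Their CPM columns were not used, and all columns matched a library by name (0 unmatched).

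Counts were filtered with filterByExpr of edgeR 4.0.16 (minimum count 10, total 15), scaled by TMM factors and fitted with the quasi-likelihood model over all genes, with the group as its only term, in R 4.3.3. Tests were two-sided. SEs were derived from the F statistic. DESeq2 1.42.0 (adjusted p missing where filtered) and limma-voom (limma 3.58.1) were alternatives, beside other scalings, filters and thresholds, the replicate block and each library left out. SciPy 1.17.1 gave the permutation tests. The code was tested on simulated data. The numbers of Ctr and αGlu libraries were taken from the labels. The study describes independent experiments, but the labels do not, and if the libraries were technical repeats p-values would measure only that spread.

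Coordinates are from GENCODE M21 (41474 of 41549 identifiers matched). All 10 genes are named, and from each group of the pathway list the 2 with the smallest unadjusted p. The genes and lists were chosen with earlier results of these data known. The values of 1 list gene are not reported here.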

Additional observations from a re-analysis of the deposited data

How the results depend on the processing

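Over all genes the main test called 0, DESeq2 1117, the replicate block 17, and leaving out each library in turn from 0 to 2290, the last without αGlu 1. Of the 10 genes DESeq2 called 3 and leaving out a library 0 to 3, again 3 without αGlu 1. Of the pathway list DESeq2 called 14 and leaving out a library 0 to 20, where the 14 and the 20 include Tnfrsf9, which the main filter removed. The other scalings, filters and thresholds and limma-voom called none of the 10 and none of the list. Genes of the 10 without overlap between the groups numbered 2, and 2 to 8 when a library was left out. They were 5 without Ctr 2, where 37.7% of all genes had no overlap and 18% were higher in αGlu, and 8 without αGlu 1. The log2 fold change of Cyld was 0.09, and leaving out a library gave -0.0156 (without αGlu 1) to 0.157. Of the single-gene values under the alternatives, 133 kept their direction and side of the threshold, 6 came to pass it (Tnfaip3, Traf1 and Birc3 in DESeq2 and without αGlu 1) and 1 reversed (Cyld). Over all 14 alternatives the log2 fold change of Tnfaip3 lay between 1.10 and 1.76 (adjusted p from 0.000433 to 0.432), of Traf1 between 2.75 and 3.86 (3.76e-05 to 0.427) and of Birc3 between 1.39 and 2.25 (2.8e-05 to 0.427). With library size alone the all-gene median was 0.10, against 0.02. The labels do not say that replicate numbers pair the libraries, and the study describes no block, so the main test did not treat the numbers as pairs. Same-numbered deviations correlated at 0.0764, 0.0646 and 0.154. Every library correlated best with its own number, since different numbers gave -0.112 to 0.0459, which is a hint from the data of a weak pairing. With the replicate block none of the 10 and none of the list was called. The order of the 10 genes in Ctr was the same on the RPKM scale in all 9 neighbouring pairs. Within a library these scales differ only by a constant, so this was no independent check. An effect of read depth on these tests was not tested.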
